A study of Mus musculus with 36 samples.

Results

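The collagen genes were taken as every row of the deposited mouse muscle expression table whose symbol reads Col, a number, a and a second number, with a signal in at least 1 of the 36 libraries. That gave 44 genes among the 17873 genes with a signal, and no row with such a symbol was without one. Col6a4 (3 libraries) and Col10a1 (8 libraries) were the most sparsely detected. A filter on low signals, set at the 25th percentile of all genes (-5.24 on the log2 scale), kept 35 of the 44. Col28a1 and Col19a1 lay just above it (means of -4.09 and -4.43 over all libraries, with missing signals at the table's lowest value), and Col25a1 and Col9a3 just below it (-5.48 and -5.66). The other collagen genes not kept were Col2a1, Col4a6, Col6a4, Col6a5, Col9a2, Col10a1 and Col17a1. By class, the filter kept 10 of 11 fibrillar collagens, 5 of 6 type IV chains, 2 of 2 multiplexins, 4 of 6 type VI chains, 7 of 9 fibril-associated collagens (FACITs), 3 of 4 short-chain and anchoring collagens, 2 of 4 transmembrane collagens and both remaining genes, Col26a1 and Col28a1.

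The study measured RNA by sequencing in the soleus, a slow oxidative calf muscle, and the extensor digitorum longus (EDL), a fast shin muscle, of 1-year-old male C57BL/6JBom mice kept at about 22 °C. It asked what muscle loses without the estrogen-related receptors ERRalpha, ERRbeta and ERRgamma, nuclear receptors that drive genes of mitochondrial energy metabolism. The 3 classes of mice carried loxP-flanked (floxed) alleles, and each was compared with its own wild-type group. These were floxed Esrra (ERRalpha class), floxed Esrrb with floxed Esrrg (ERRbeta/ERRgamma class) and floxed Esrra with floxed Esrrg (ERRalpha/ERRgamma class). In the knockout-labelled mice (mKO for 1 receptor, dmKO for a pair), Cre came from the human alpha-skeletal actin promoter, which is active in muscle fibres, so fibroblasts, vessels and other cells keep the receptors. The wild-type columns bear the mark read here as floxed alleles without Cre, so all groups share the floxed alleles. Each of the 12 groups, set by class, genotype and muscle, held 3 libraries, and 14 of the 22 animals gave both muscles. Libraries are numbered here in column order, as names only.

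Collagens are proteins of 3 intertwined alpha chains. Fibrillar collagens such as types I and III form the cables of tendon and of the connective sheaths of muscle, type IV forms the sheet of the basement membrane around each fibre and vessel, and type VI forms fine filaments that tie that membrane to the surrounding matrix. FACITs and multiplexins decorate fibrils or basement membranes, short-chain collagens form networks, and type VII forms anchoring fibrils. In muscle, most collagen RNA is known to come from fibroblasts and other cells of the interstitium rather than from the fibres. In such whole-muscle RNA, fewer cells of a type and less RNA per cell cannot be told apart.

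The libraries detected between 13667 and 14951 genes each, which is the only trace of depth in the table. Acta1, the actin of skeletal muscle fibres, was at 12.45 to 13.28 in all 18 wild-type libraries. Myh7, the slow myosin, was at 9.13 to 10.21 in wild-type soleus and at -2.48 to 2.33 in wild-type EDL, as the muscle labels have it. The labels of the knockouts were borne out for Esrra in the ERRalpha/ERRgamma class, where its signal fell by 2.23 ± 0.12 (log2 difference ± SE, n = 3 against 3) in EDL and by 0.57 ± 0.12 in soleus. Esrra passed the test in neither muscle of the ERRalpha class (5.20 in wild-type and 5.01 in knockout-labelled EDL, 5.52 and 5.85 in soleus), and Esrrb in neither muscle of the ERRbeta/ERRgamma class. The Esrrg signal was higher, not lower, in knockout-labelled soleus of the ERRbeta/ERRgamma class (by 1.09 ± 0.15) and in both muscles of the ERRalpha/ERRgamma class. A deletion of 1 exon can leave the summed signal of a gene in place, so the labels of these groups are unchecked, and directions below are for libraries as labelled. Receptor genes that are not floxed in a class moved as well. In limma, Esrrg was higher in ERRalpha mKO EDL (0.61 ± 0.15, adjusted p = 0.0198). Esrrb was lower in ERRalpha/ERRgamma dmKO EDL (-1.60 ± 0.21, adjusted p = 9.67e-07).

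Col3a1 and Col1a2, chains of the 2 main fibrillar collagens of muscle, had the highest collagen signals in wild-type muscle. All signals are log2 values (of 4425 values of sparsely detected genes, 882 were 0.9 to 1.3 over the lowest value of their gene and 39 were 0.4 to 0.8 over it, as a step from 1 to 2 reads gives in base 2), and levels of different genes are compared with caution because it is not stated whether the signals were divided by transcript length. Among genes detected in 4 to 10 libraries, the lowest detected signal fell by 0.80 ± 0.018 (SE over 1057 genes) per doubling of exon length, where a full division by length would give 1. In EDL, Col3a1 had a mean of 3.79 ± 0.70 (SD, n = 9 wild-type libraries), Col1a2 of 3.68 ± 0.47, Col4a1 of 3.16, Col4a2 of 2.96, Col6a1 of 2.85 and Col1a1 of 2.42. The Col3a1 and Col1a2 means differed by less than their SDs. The same 6 genes led in soleus, with Col3a1 at 4.52 ± 0.84, Col1a2 at 3.98 ± 0.64, Col4a1 at 3.35, Col6a1 at 3.21, Col4a2 at 3.13 and Col1a1 at 2.71. The lowest kept means were those of Col28a1 (-4.00) and Col26a1 (-4.02) in EDL and of Col9a1 (-4.16) and Col19a1 (-5.84) in soleus.

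**Figure D1:**
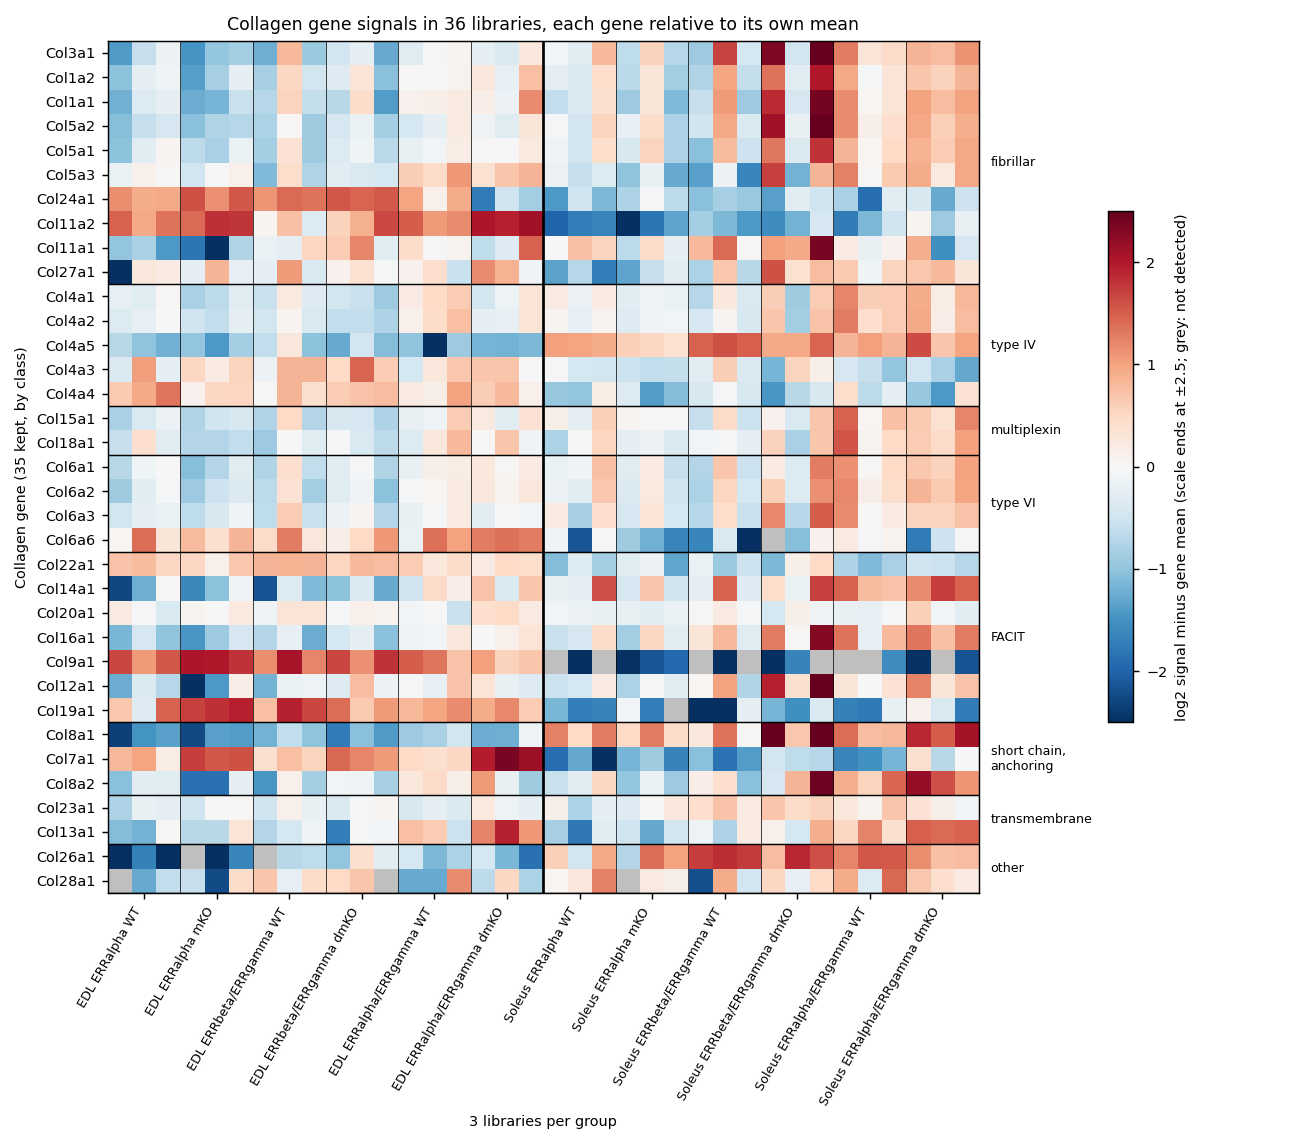
Log2 signal of each kept collagen gene (35 rows, by class) in each of 36 libraries (columns, 3 per group), as the difference from the gene's own mean (blue below, red above, grey not detected). Col7a1, Col11a2, Col22a1 and Col24a1 stand above their means in most EDL libraries, and Col4a5, Col8a1 and Col26a1 in most soleus libraries.

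For 3 of the 5 pairs of chains of 1 molecule, the ratio varied by an SD of at most 0.23 across the 36 libraries, less than the genes themselves. Col4a1 and Col4a2, which build the common type IV network together, differed by 0.18 on average with an SD of 0.13, against SDs of 0.55 and 0.52 for the genes alone. For Col6a1 and Col6a2 the difference was 0.54 (SD 0.14), and for Col1a1 and Col1a2, the chains of type I, it was -1.26 (SD 0.23, against 0.90 and 0.74 for the genes alone). Col5a1 and Col5a2, chains of type V, differed by -0.40 (SD 0.28, against 0.68 and 0.82 for the genes alone), with -0.23 in EDL and -0.57 in soleus. Col4a3 and Col4a4, chains of a second type IV network, had a difference of 0.38 with an SD of 0.65, about the SDs of the genes alone (0.67 and 0.76). Between molecules, Col3a1 exceeded Col1a1 by 1.34 in EDL and 1.77 in soleus. The SD of this difference was 0.36, and that of Col3a1 minus Col1a2 was 0.37, against 0.99 for Col3a1 alone. A ratio that varied less than its genes was therefore not particular to chains of 1 molecule. These are descriptions over libraries that share animals and groups.

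The Col4a1 and Col4a2 genes lie head to head on mouse chromosome 8, and their start regions are shown because the pair had the tightest ratio among the chain pairs computed. Col6a1 and Col6a2 came close to it (SD 0.14 against 0.13). Col4a3 and Col4a4 also lie head to head, on chromosome 1 (GRCm38 starts at 82586921 on the plus and 82586849 on the minus strand). Their ratio had an SD of 0.65, so a tight ratio did not go with this layout in both pairs. In RefSeq (GRCm38.p6) the start sites are 21 bases apart on opposite strands, and the windows from 250 bases before to 50 bases after each start share 78 bases. Capitals mark the CCAAT box, a common promoter motif bound by NF-Y, in the first window as ATTGG on the other strand.
Col4a1 chr8:11312777-11313076 (minus strand): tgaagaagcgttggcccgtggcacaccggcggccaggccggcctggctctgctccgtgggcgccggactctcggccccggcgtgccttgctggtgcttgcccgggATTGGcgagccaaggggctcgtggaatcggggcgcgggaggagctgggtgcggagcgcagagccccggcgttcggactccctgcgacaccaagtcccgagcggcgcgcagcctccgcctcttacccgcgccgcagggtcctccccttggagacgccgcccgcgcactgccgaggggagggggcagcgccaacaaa
Col4a2 chr8:11312555-11312854 (plus strand): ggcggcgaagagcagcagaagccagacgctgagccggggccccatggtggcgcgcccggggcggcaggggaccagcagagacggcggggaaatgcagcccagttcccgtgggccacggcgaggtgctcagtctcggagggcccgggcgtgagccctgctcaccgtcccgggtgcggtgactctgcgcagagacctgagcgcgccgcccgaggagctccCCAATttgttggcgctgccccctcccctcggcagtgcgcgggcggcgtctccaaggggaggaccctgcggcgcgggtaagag
CCAAT, searched on both strands, occurred in 37.4% of all 32851 promoter windows and in those of 13 of the 35 collagen genes that had a window in the table. The share is per window and the count per gene, with 38 windows for these 35 genes. No window was in the table for Col1a1, Col2a1, Col4a3, Col5a2, Col9a3, Col12a1, Col14a1, Col22a1 and Col26a1. The Col4a1 and Col4a2 transcripts overlap at these starts, and reads there cannot be told apart where counting ignores strand.

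Collagen signals varied more between libraries of a group than most genes did. The SD within groups had a median of 0.58 over the 35 collagen genes (range 0.22 to 0.91), against 0.23 over all genes kept. The 3 wild-type groups of a muscle also differed: limma's F-test called 3 collagen genes in soleus, the basement membrane chains Col4a1 (range of group means 1.10, adjusted p = 0.037) and Col4a2 (1.05, adjusted p = 0.03) and the fibrillar Col5a3 (1.69, adjusted p = 0.0477), where it called 11% of all genes. None of these 3 was called without library 1 or 3 of the ERRalpha/ERRgamma or of the ERRbeta/ERRgamma wild types (adjusted p = 0.0681 to 0.215). Col5a3 was also lost without library 1, 2 or 3 of the ERRalpha wild types (adjusted p = 0.0528, 0.0578 and 0.0506). With only the groups compared or without the intensity trend, Col4a1 (adjusted p = 0.0574 and 0.0522) and Col5a3 (adjusted p = 0.0695 and 0.063) were lost. The test called none of the collagen genes in EDL (2.13% of all genes), where 4 had an unadjusted p under 0.05 (Col11a2, Col26a1, Col4a2 and Col4a5, against 17.1% of all genes). Each knockout-labelled group is therefore compared below with the wild types of its own class.

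Wild-type soleus and EDL differed for 16 of the 35 collagen genes, 7 higher and 9 lower in soleus, in limma with Benjamini-Hochberg adjustment over all genes. Among all genes tested 54.4% were called, 30.8% higher and 23.6% lower. The median collagen difference was 0.29 (23 of 35 above 0) and that of all genes 0.08. These differences are averages over the 3 wild-type classes, with 9 libraries a muscle. Most wild-type animals gave both muscles, and this fit treated their libraries as independent. With the animal as a block in limma, 17 of 35 were called, against 56.5% of all genes. Markers of other cells moved in the same comparison. Of 10 leukocyte markers tested 7 were higher in soleus (median 1.02), and of 14 fibroblast markers 8 were (median 0.59). The summed leukocyte signals were 3.51 to 6.14 in EDL and 4.66 to 6.47 in soleus, and the fibroblast sums 8.10 to 9.29 and 8.23 to 9.94, which overlap. Their part in the collagen differences was not tested.

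Of the fibrillar collagens, 3 passed the test. Col24a1, a minor fibrillar collagen, was at -0.25 to 1.03 (median 0.60) in EDL and at -2.27 to -0.68 (median -1.30) in soleus, and the muscles did not overlap. Its difference was -1.98 ± 0.20 (SE, adjusted p = 1.69e-09). Col11a2, a fibril component best known from cartilage, was at -1.38 to 0.47 (median 0.01) in EDL and at -3.05 to -1.54 (median -2.48) in soleus, a difference of -2.24 ± 0.21 (adjusted p = 2.55e-10). Again the muscles did not overlap. Col5a2, a regulator of type I fibril width, was higher in soleus by 0.68 ± 0.27 (adjusted p = 0.0336), with overlapping libraries, and this call was lost without any of 8 of the 18 libraries in turn (0.52 to 0.66, adjusted p = 0.0511 to 0.0988). The main fibrillar genes Col1a1, Col1a2 and Col3a1 did not pass the test, though Col3a1 did without library 1 of ERRbeta/ERRgamma soleus (0.91, adjusted p = 0.0357) or library 2 of the EDL of that class (0.95, adjusted p = 0.0242).

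The type IV chains split in direction. Col4a5 was at -4.15 to -1.25 (median -2.54) in EDL and at -0.69 to 0.05 (median -0.51) in soleus, so all soleus libraries were above all EDL libraries (2.11 ± 0.20, adjusted p = 3.37e-10). Its partners in the kidney-type network, Col4a3 and Col4a4, were lower in soleus, by 0.61 ± 0.25 (adjusted p = 0.0397) and 0.96 ± 0.25 (adjusted p = 0.00174), with overlapping libraries. The Col4a3 call was lost without any of 10 of the 18 libraries in turn (adjusted p = 0.0595 to 0.113), and with only the groups compared (adjusted p = 0.0585). Col4a1 and Col4a2 did not pass the test. Among type VI chains, Col6a6 alone passed, lower in soleus (-1.41 ± 0.33, adjusted p = 0.000579).

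Of the FACITs, 3 were lower and 2 higher in soleus. Col9a1, a cartilage collagen, was at -0.74 to 0.61 (median -0.13) in EDL and was detected in 3 of 9 soleus libraries, with a mean of -4.16 there. Its fitted difference, from the libraries that detected it, was -4.07 ± 0.35 (adjusted p = 2.2e-09), and with missing signals at the table's lowest value it was -6.77. Col22a1, which is known from the junction of muscle and tendon, was at 1.12 to 1.71 (median 1.56) in EDL and at -0.25 to 0.69 (median 0.03) in soleus. That gave -1.39 ± 0.17 (adjusted p = 3.12e-08) with no overlap. Col19a1 was lower in soleus as well (-2.54 ± 0.36, adjusted p = 9.98e-07), while Col14a1 (1.33 ± 0.34, adjusted p = 0.00167) and Col16a1 (0.76 ± 0.26, adjusted p = 0.0158) were higher. Sox9, the cartilage transcription factor and the only 1 of 6 cartilage markers kept by the filter, was higher in soleus (2.50 ± 0.22, adjusted p = 9.5e-11), so the list gives no further value beside Col9a1 and Col11a2.

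Col8a1, a short-chain collagen of vessel walls and the cornea, was at -1.65 to 0.23 (median -0.32) in EDL and at 0.71 to 2.09 (median 1.50) in soleus. With a difference of 1.98 ± 0.26 (adjusted p = 1.54e-07), it was the only collagen besides Col4a5 whose wild-type soleus libraries all lay above all EDL libraries. Col7a1, the type VII chain, was at 0.41 to 1.22 (median 0.75) in EDL and at -2.30 to -0.82 (median -1.28) in soleus. All EDL libraries lay above all soleus libraries, by -2.16 ± 0.16 for soleus minus EDL (adjusted p = 1.26e-12). The remaining calls were Col26a1 (2.46 ± 0.30, adjusted p = 7.29e-08) and the transmembrane Col23a1 (0.48 ± 0.14, adjusted p = 0.00438), both higher in soleus. In all, 2 collagens had all soleus libraries higher and 5 had all lower (Col7a1, Col9a1, Col11a2, Col22a1 and Col24a1), against 8.64% and 8.48% of all genes.

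**Figure D2:**
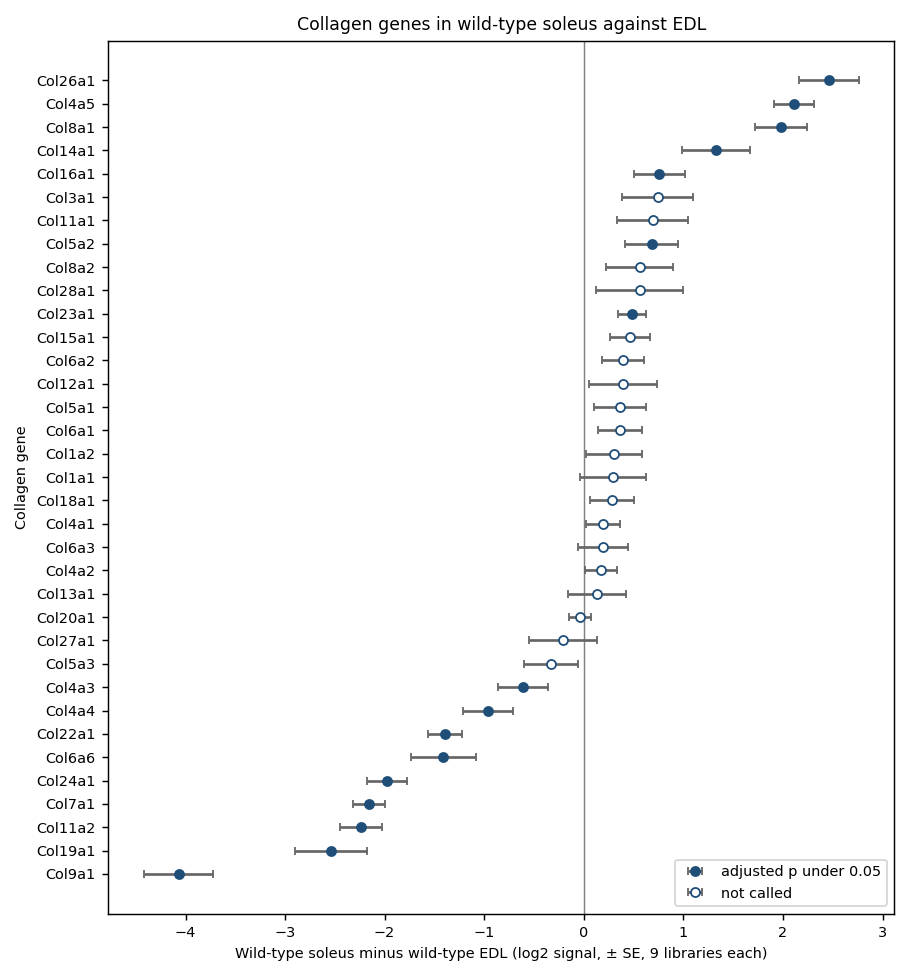
Difference between wild-type soleus and wild-type EDL (log2 signal, mean ± SE from limma, 9 libraries a muscle) for the 35 kept collagen genes. Col26a1, Col4a5 and Col8a1 stand at the upper end and Col9a1, Col19a1, Col11a2 and Col7a1 at the lower end.

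Col7a1 was the collagen gene that changed in most knockout comparisons. It rose in 3 of the 6, by 0.97 ± 0.27 (log2 difference ± SE) in EDL of the ERRalpha class and by 1.68 ± 0.27 in EDL and 1.34 ± 0.27 in soleus of the ERRalpha/ERRgamma class. It encodes the chain of type VII collagen, the anchoring fibril that fastens the epidermal basement membrane to the dermis. The gene lies at chr9:108953586-108984875 (GRCm38, plus strand) and holds the microRNA gene Mir711.

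The start region of Col7a1 and that of Col24a1, the collagen gene that fell, are shown because both hold AAGGTCA, the core of the element that estrogen-related receptors bind. In Col7a1 it stands on the other strand, as TGACCTT. Capitals mark it, starting at position -140 from the RefSeq start site in Col7a1 and at -139 in Col24a1.
Col7a1 chr9:108953336-108953635 (plus strand): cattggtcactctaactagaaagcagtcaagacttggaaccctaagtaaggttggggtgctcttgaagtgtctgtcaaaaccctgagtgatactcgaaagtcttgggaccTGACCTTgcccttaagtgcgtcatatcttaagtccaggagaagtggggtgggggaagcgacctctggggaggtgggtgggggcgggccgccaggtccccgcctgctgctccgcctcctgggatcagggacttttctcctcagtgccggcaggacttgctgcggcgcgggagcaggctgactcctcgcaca
Col24a1 chr3:145292222-145292521 (plus strand): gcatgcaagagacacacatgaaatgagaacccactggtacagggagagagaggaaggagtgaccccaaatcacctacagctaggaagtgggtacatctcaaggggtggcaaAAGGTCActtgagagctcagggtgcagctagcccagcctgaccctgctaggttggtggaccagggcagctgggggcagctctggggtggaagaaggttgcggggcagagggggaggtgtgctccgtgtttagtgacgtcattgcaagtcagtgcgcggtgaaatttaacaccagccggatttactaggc
AAGGTCA, searched on both strands, occurred in 4.72% of all 32851 promoter windows and in windows of 5 of the 35 collagen genes matched (Col7a1, Col9a1, Col11a1, Col23a1 and Col24a1). The share is per window and the count per gene, with 38 windows for the 35 genes, so they are not like measures. The longer TNAAGGTCA, which contains it, occurred in 1.28% of all windows and, among the collagens, in Col11a1. A match is a run of letters in a 300-base window and was not tested for binding.

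In EDL, Col7a1 signals were 1.04, 1.22 and 0.41 in the wild types of the ERRalpha class and 1.95, 1.79 and 1.83 in the mKO libraries. They were 0.64, 0.98 and 0.79 and then 1.67, 1.46 and 1.29 in the wild types and dmKO of the ERRbeta/ERRgamma class, and 0.72, 0.64 and 0.75 and then 2.20, 2.60 and 2.37 in those of the ERRalpha/ERRgamma class. In each of the 3 classes every knockout-labelled EDL library was above every wild type of its class. The fold differences were 1.95 (ERRalpha, adjusted p = 0.0465), 1.59 (ERRbeta/ERRgamma, adjusted p = 0.541) and 3.21 (ERRalpha/ERRgamma, adjusted p = 2.9e-05). The ERRalpha call was near the threshold and was lost after recentring (adjusted p = 0.0544). It was also lost without wild-type library 1 or 3 (adjusted p = 0.0754 and 0.252) and without mKO library 1, 2 or 3 (adjusted p = 0.15, 0.101 and 0.109).

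In soleus, where the gene was lower, the ERRalpha class had Col7a1 signals of -1.67, -1.05 and -2.30 in wild types and -0.94, -0.65 and -1.44 in mKO libraries, which overlap. In the ERRbeta/ERRgamma class they were -0.82, -1.61 and -1.16 against -0.25, -0.41 and -0.49, and in the ERRalpha/ERRgamma class -1.42, -1.28 and -0.94 against 0.64, -0.47 and 0.22. In the latter pair of classes the groups did not overlap. The differences were 0.66 ± 0.27 (adjusted p = 0.341), 0.82 ± 0.27 (adjusted p = 0.0695) and 1.34 ± 0.27 (2.54-fold, adjusted p = 0.000858). Without wild-type library 1 of the ERRbeta/ERRgamma soleus that difference was 1.00 and called (adjusted p = 0.048). Both ERRalpha/ERRgamma calls held under every alternative run. The class differences themselves were not called in the fit to all groups: ERRalpha/ERRgamma minus ERRbeta/ERRgamma was 1.02 ± 0.39 in EDL (adjusted p = 0.128, but 0.00811 with only the groups compared in the fit) and 0.53 ± 0.39 in soleus (adjusted p = 0.656). The change in soleus minus that in EDL was between -0.34 and 0.15 in the 3 classes (SE 0.39 each), with the lowest adjusted p at 0.871. A p that misses the threshold does not show that the classes or muscles respond alike.

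Scx, the tendon transcription factor scleraxis, moved in the same comparisons. It was picked, after its values were seen, from a list of tendon and muscle-tendon junction markers, called tendon markers below. It rose by 0.87 ± 0.25 in ERRalpha EDL (adjusted p = 0.0467), by 2.07 ± 0.25 in ERRalpha/ERRgamma EDL (adjusted p = 1.85e-07) and by 2.13 ± 0.25 in ERRalpha/ERRgamma soleus (adjusted p = 3.23e-07), and also in ERRbeta/ERRgamma soleus (2.10 ± 0.25, adjusted p = 9.06e-06). It was the only one of 14 tendon markers called in the ERRalpha and ERRalpha/ERRgamma comparisons. Of all genes, 3.28% were called in ERRalpha EDL, 18.1% in ERRalpha/ERRgamma EDL and 12.7% in ERRalpha/ERRgamma soleus. The sum of the 14 was 5.63, 5.81 and 5.72 in wild types against 5.16, 4.94 and 6.29 in mKO of ERRalpha EDL, where the list's median difference was -0.61. In ERRalpha/ERRgamma EDL it was 6.35, 6.67 and 6.57 against 7.40, 6.56 and 6.72 (median -0.14), and in soleus of that class 6.40, 6.04 and 6.69 against 7.53, 6.94 and 7.25 (median 0.66). All 14 were detected in these libraries, and the part of tendon RNA in the Col7a1 result was not tested.

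Col24a1 fell in ERRalpha/ERRgamma EDL and passed the test in no other knockout comparison. The gene, at chr3:145292472-145552011 (GRCm38, plus strand), encodes a minor fibrillar collagen. In that class its EDL signals were 0.60, -0.25 and 0.55 in wild types and -2.12, -0.88 and -1.24 in dmKO libraries. Every dmKO library was below every wild type, by 1.71 ± 0.35 on the log2 scale (3.27-fold lower, adjusted p = 0.000607). ERRalpha EDL had 0.78, 0.55 and 0.58 against 1.21, 0.77 and 1.17, and ERRbeta/ERRgamma EDL had 0.73, 1.03 and 0.99 against 1.18, 1.07 and 1.16. There the knockout-labelled means were the higher ones (by 0.41 and 0.22, SE 0.35 each, adjusted p = 0.651 and 0.972).

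The soleus signals of Col24a1 were low and overlapped between wild types and knockout-labelled libraries in every class. They were -1.82, -0.88 and -1.50 against -1.15, -0.42 and -1.04 in the ERRalpha class, -1.43, -1.20 and -1.30 against -1.73, -0.65 and -0.88 in the ERRbeta/ERRgamma class and -1.19, -2.27 and -0.68 against -0.77, -1.63 and -0.90 in the ERRalpha/ERRgamma class. The 3 dmKO libraries of ERRalpha/ERRgamma EDL lay at -2.12 to -0.88, within the wild-type soleus range of -2.27 to -0.68. The difference between muscles was tested: the ERRalpha/ERRgamma change in soleus minus that in EDL was 1.99 ± 0.50 (adjusted p = 0.0252). That call was lost without dmKO library 1 of EDL (1.64, adjusted p = 0.109), without wild-type library 1 or 3 of EDL (1.84 and 1.87, adjusted p = 0.0773 and 0.0744), without dmKO library 1 or 3 of soleus (1.83 and 1.89, adjusted p = 0.0746 and 0.0731) and without wild-type library 2 of soleus (1.54, adjusted p = 0.111), and with only the groups compared (adjusted p = 0.188). In EDL the ERRalpha/ERRgamma change differed from the ERRalpha change by -2.12 ± 0.50 (adjusted p = 0.00722) and from the ERRbeta/ERRgamma change by -1.93 ± 0.50 (adjusted p = 0.0124), where 4.81% and 6.87% of all genes were called. Without dmKO library 1 of ERRalpha/ERRgamma EDL the latter difference was -1.58 (adjusted p = 0.0572). All of these tests use the same wild-type and dmKO libraries of ERRalpha/ERRgamma EDL, so they are not independent of each other.

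**Figure D3:**
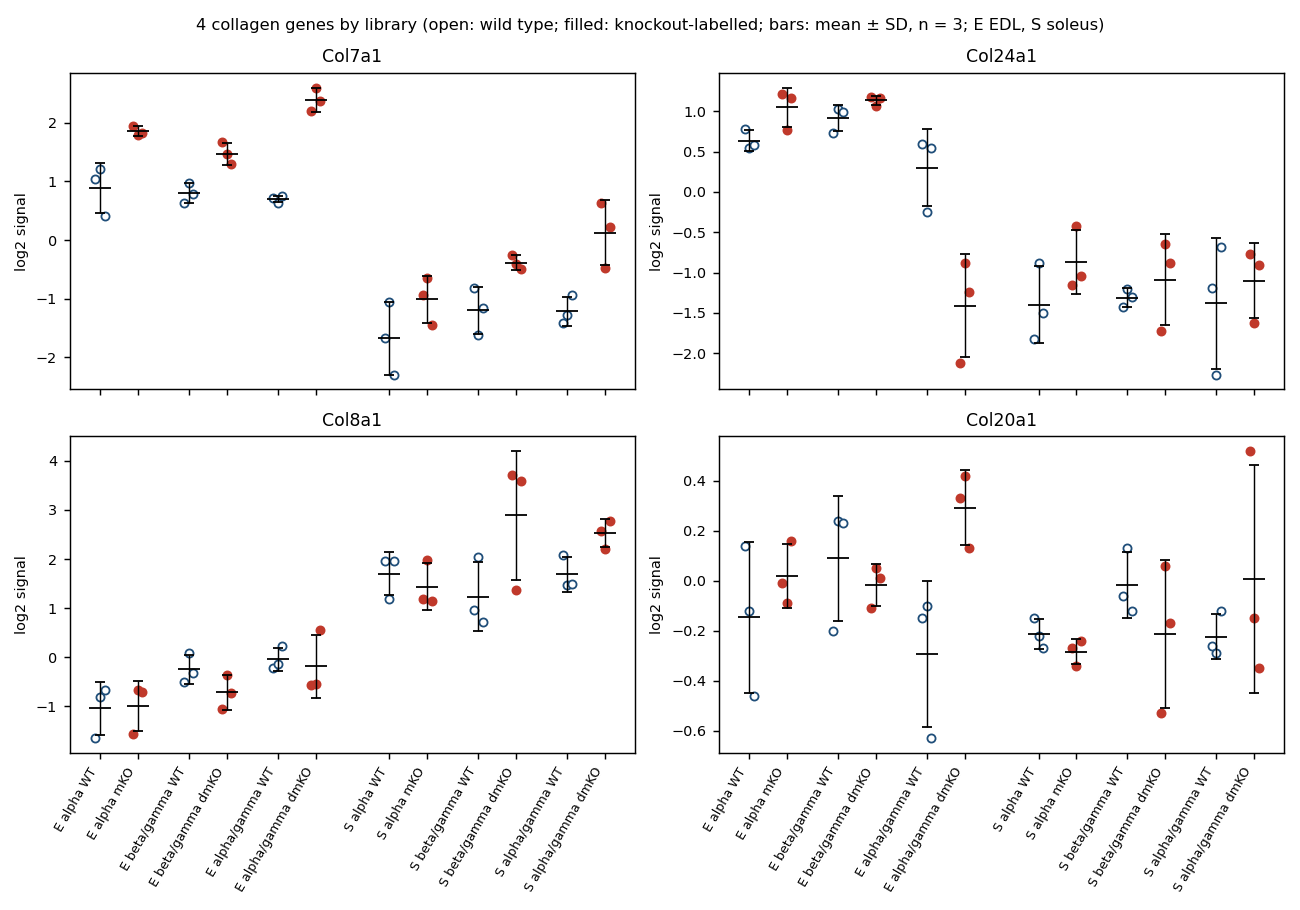
Log2 signals of Col7a1, Col24a1, Col8a1 and Col20a1 in single libraries (points, open for wild type and filled for knockout-labelled) with the mean ± SD of each of the 12 groups (n = 3). Col7a1 points of the knockout-labelled groups stand above their wild types in 5 of 6 pairs, and the Col24a1 points of ERRalpha/ERRgamma dmKO EDL stand below theirs.

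In soleus of the ERRbeta/ERRgamma class most collagen means were higher in the dmKO libraries, but Col8a1 alone passed the test. Of the 35 genes, 30 had a difference above 0, with a median of 0.70 against 0.05 over all genes, and 11 had an unadjusted p under 0.05 (21.3% of all genes). With adjustment 1 of 35 was called, where 6.71% of all genes were. The groups were apart for Col7a1 on the higher side (9.61% of all genes) and for Col4a5 on the lower (-0.39, 9.08% of all genes). The class medians were 1.18 for the fibrillar collagens (10 of 10 above 0), 0.83 for type VI (4 of 4), 0.81 for FACITs (6 of 7), 1.11 for the short-chain and anchoring genes (3 of 3), 0.31 for the multiplexins and -0.16 for the type IV chains.

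Single libraries set the size of this difference. Of the 30 collagens detected in all libraries, dmKO library 1 exceeded all 3 wild types for 16, library 3 for 25 and library 2 for 4. Relative to the wild-type mean, the median collagen was at 0.76, 1.26 and -0.15 in dmKO libraries 1, 3 and 2. Wild-type library 2 in turn lay above both other wild types for 26 of the 30, and the EDL of the same animal did so for 27. So the wild types with the higher collagen signals overlapped the dmKO library with the lower ones.

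Col8a1 lies at chr16:57624258-57754737 (GRCm38, minus strand). Its soleus signals in this class were 0.96, 2.04 and 0.71 in wild types and 3.71, 1.37 and 3.58 in dmKO libraries. Library 2 of the dmKO lay below wild-type library 2, so the groups overlapped, and the difference was 1.65 ± 0.45 (3.14-fold, adjusted p = 0.0224). This call was lost without dmKO library 1 (1.24, adjusted p = 0.187) or 3 (1.30, adjusted p = 0.116), without wild-type library 1 (1.51, adjusted p = 0.0818) or 3 (1.39, adjusted p = 0.137), and with only the groups compared in the fit (adjusted p = 0.433). In EDL of the same class the signals were -0.50, 0.08 and -0.32 against -1.06, -0.36 and -0.73, with a difference of -0.47. The difference between these changes, 2.12 ± 0.63, had an adjusted p of 0.15, and of 0.004 without dmKO soleus library 2 (2.88).

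In the ERRalpha/ERRgamma class, soleus Col8a1 was at 2.09, 1.47 and 1.50 in wild types and 2.58, 2.21 and 2.77 in dmKO libraries, without overlap (0.84 ± 0.45, adjusted p = 0.252). The ERRalpha class had 1.95, 1.19 and 1.96 against 1.18, 1.99 and 1.15 in soleus and -1.65, -0.80 and -0.66 against -1.57, -0.67 and -0.71 in EDL. In ERRalpha/ERRgamma EDL the values were -0.21, -0.13 and 0.23 and -0.56, -0.54 and 0.56. The ERRalpha pairs and this EDL pair overlapped.

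The fibrillar genes of ERRbeta/ERRgamma soleus followed the same order of libraries. Col3a1, the chain of type III, was at 3.30, 5.89 and 3.76 in wild types and 6.54, 3.74 and 6.80 in dmKO libraries. Wild-type library 2 and dmKO library 2 each stood on the other group's side, and the difference was 1.38 ± 0.62 (adjusted p = 0.191). Col5a3 (1.50 ± 0.48, adjusted p = 0.0544), Col5a2 (1.43 ± 0.46, adjusted p = 0.0588) and Col5a1 (1.17 ± 0.45, adjusted p = 0.116), chains of the type V collagen that starts fibrils, had differences of that size. So had the type I chains Col1a1 (1.42 ± 0.57, adjusted p = 0.137) and Col1a2 (1.14 ± 0.49, adjusted p = 0.162), and the FACIT Col12a1 (1.82 ± 0.59, adjusted p = 0.0602). The FACIT Col16a1 (0.94 ± 0.46) and the type VI chain Col6a3 (0.95 ± 0.43) had smaller differences with an unadjusted p under 0.05.

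With dmKO library 2 left out, 13 collagen genes were called (37.1% of those tested, against 16% of all genes), with a median of 0.95. With wild-type library 2 left out, 8 were called (23.5% against 6.22%), with a median of 0.98. With wild-type library 3 or dmKO library 3 left out, no collagen gene was called in limma (3.29% and 5.53% of all genes), and the medians were 0.59 and 0.36. Without dmKO library 2, Col3a1 stood at 2.35 (adjusted p = 0.0055) and the basement membrane chain Col4a1 at 0.91 (adjusted p = 0.0191), and without wild-type library 2 Col3a1 stood at 2.16 (adjusted p = 0.0346).

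Markers of other cells moved in the same libraries. The summed signal of 12 leukocyte markers was 4.66, 6.45 and 5.04 in the wild types and 8.28, 5.14 and 6.54 in the dmKO libraries. Of its genes 1 or 2 were not detected in a library, and all 10 tested had a difference above 0 (median 1.28), 2 with an unadjusted p under 0.05 and 0 called in limma. Cd68, the macrophage marker on it, was at -0.01, 1.45 and -0.98 against 5.07, -0.03 and 1.70. The sum of 14 tendon markers was 5.90, 6.09 and 5.03 against 8.85, 5.97 and 7.84, and 4 of them were called higher (6.71% of all genes were called): Ankrd1 by 3.00 ± 0.56 (adjusted p = 0.00107), Scx, Cilp by 1.94 ± 0.54 (adjusted p = 0.0253) and Thbs4 by 1.75 ± 0.49 (adjusted p = 0.0281). The groups overlapped for Cilp and Thbs4. The list also covers the muscle-tendon junction, so its sum is not a measure of tendon cells alone. Its other members were not called, and Chad (-0.47), Ptgis (-0.27) and Mkx (-0.19) had differences below 0. The sum of 15 fibroblast markers was 8.23, 9.07 and 8.48 against 8.52, 8.45 and 9.42, which overlap, with 0 of 14 called in limma, 2 with an unadjusted p under 0.05 and a median difference of 0.23. For comparison, the summed fibrillar collagens were at 4.82, 6.86 and 5.03 against 7.51, 5.23 and 7.89, and the type IV chains at 3.63, 4.33 and 3.79 against 4.75, 3.32 and 4.79. The part of leukocyte and tendon RNA in the collagen differences was not tested.

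**Figure D4:**
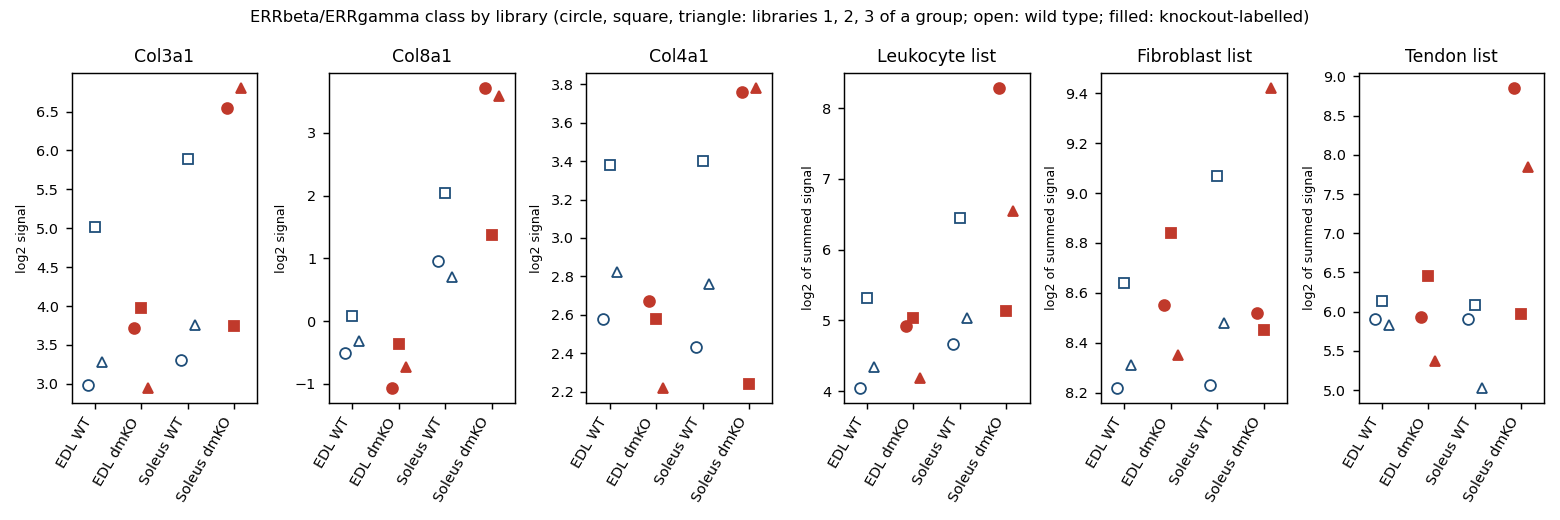
Log2 signals of Col3a1, Col8a1 and Col4a1 and log2 summed signals of leukocyte, fibroblast and tendon markers in single libraries of the ERRbeta/ERRgamma class, by muscle and genotype. In soleus, dmKO libraries 1 and 3 stand apart from dmKO library 2 for the collagens. Library 2 lies within the wild-type range for Col3a1 and Col8a1 and below it for Col4a1.

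EDL of the ERRbeta/ERRgamma class had no called collagen gene in limma, where 0.218% of all genes were called. The median difference was 0.05 (18 of 35 above 0), and Col7a1 and Col11a2 (0.89 ± 0.36) had an unadjusted p under 0.05 (7.15% of all genes). The groups were apart for Col7a1 and Col24a1 on the higher side (11.4% of all genes) and for Col22a1 and Col4a2 (-0.41) on the lower (5.51%). The change in soleus minus that in EDL was above 0 for 30 of 35 genes with a median of 0.71 (all genes 0.01), and 0 passed the test, against 0.21% of all genes. Here 5 had an unadjusted p under 0.05 (11.9% of all genes): Col1a1 (1.71 ± 0.81), Col4a2 (0.84 ± 0.40), Col5a2 (1.36 ± 0.65), Col5a3 (1.38 ± 0.67) and Col8a1. In the ERRalpha class 0 of 35 collagens differed between the muscles in their change, in adjusted or unadjusted p, where 0.0151% of all genes had an adjusted p under 0.05.

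**Figure D5:**
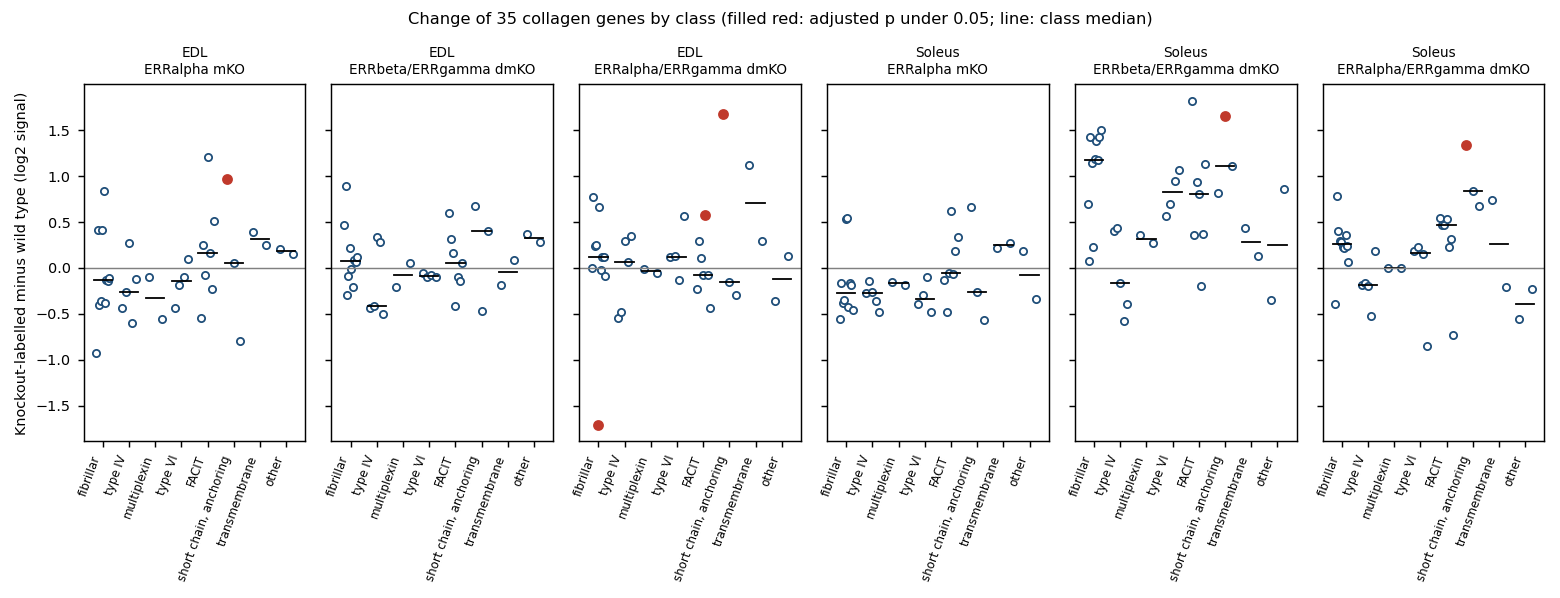
Log2 difference between knockout-labelled and wild-type libraries for each kept collagen gene (points, by class) in the 6 comparisons. Most points of ERRbeta/ERRgamma soleus lie above 0, and those of the other comparisons lie on both sides.

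In EDL of the ERRalpha class, Col7a1 was the only one of 35 collagens called, where 3.28% of all genes were. The median collagen difference was -0.10 (15 of 35 above 0), against 0.02 for all genes. The mKO and wild-type groups were apart for 3 collagens on the higher side (Col7a1, Col9a1 and Col19a1, against 14.1% of all genes) and for 3 on the lower side. The latter were Col4a1 (-0.43 ± 0.30), Col4a4 (-0.60) and Col18a1 (-0.55), the multiplexin whose end fragment is endostatin, against 9.91% of all genes. They did not pass the test. In soleus of that class no collagen was called in limma, where 0.71% of all genes were, 9 of 35 differences were above 0 and the median was -0.18 (all genes -0.02). All 5 type IV chains had differences below 0 there, with a median of -0.27, and 1 collagen had an unadjusted p under 0.05 (10.8% of all genes). The groups were apart for Col9a1 on the higher side (7.99% of all genes), although 1 of its 3 wild-type libraries detected it, and for Col4a3 and Col4a5 (-0.48) on the lower (9.24%).

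In EDL of the ERRalpha/ERRgamma class 3 of 35 collagens were called, Col7a1 and Col20a1 higher and Col24a1 lower, where 18.1% of all genes were called. The collagen median was 0.11, near the all-gene median of 0.13. Col20a1, a FACIT, was at -0.15, -0.10 and -0.63 in wild types and 0.33, 0.42 and 0.13 in dmKO libraries, without overlap. Its difference of 0.58 ± 0.20 (1.5-fold, adjusted p = 0.0378) was lost when each library was recentred on its median (0.52, adjusted p = 0.0859). It was also lost without dmKO library 1 or 2 (adjusted p = 0.0965 and 0.128) and without wild-type library 3 (0.41, adjusted p = 0.217), and with only the groups compared in the fit (adjusted p = 0.104). In the other EDL groups Col20a1 was at 0.14, -0.12 and -0.46 against -0.01, -0.09 and 0.16 (ERRalpha) and -0.20, 0.24 and 0.23 against -0.11, 0.05 and 0.01 (ERRbeta/ERRgamma), and both pairs overlapped. All 18 soleus values of the gene lay between -0.53 and 0.52. Col11a2 (0.77 ± 0.36, adjusted p = 0.153) and Col13a1, a transmembrane collagen of the nerve-muscle junction (1.12 ± 0.51, adjusted p = 0.133), also had dmKO libraries above all wild types, as had Col23a1 (0.29 ± 0.24). Groups did not overlap for 5 collagens on the higher and 1 on the lower side, against 26.3% and 11.7% of all genes.

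In soleus of the ERRalpha/ERRgamma class Col7a1 was the single call among 35, where 12.7% of all genes were called. The collagen median was 0.23 and that of all genes 0.11, and 9 of 10 fibrillar collagens were above 0 with a median of 0.26. Groups did not overlap for Col7a1, Col8a1, Col13a1 (0.74) and Col22a1 (0.31) on the higher side (21.8% of all genes) and for Col9a1 (-0.73) and Col26a1 (-0.55) on the lower (10.6%). The Col9a1 value rests on the 1 wild-type and 2 dmKO libraries that detected it. The sum of fibroblast markers was 9.94, 8.97 and 9.45 in these wild types and 9.95, 10.06 and 10.20 in the dmKO libraries, with 14 of 14 genes above 0, 2 with an unadjusted p under 0.05 and 0 called in limma. The sum of leukocyte markers was 6.45, 5.89 and 5.92 against 6.70, 7.06 and 6.78. Col24a1 was the 1 collagen whose change differed between the muscles in this class, where 2.07% of all genes did.

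After recentring each library on its median, the medians of all genes in the ERRalpha/ERRgamma class were 0.07 in EDL and 0.04 in soleus in place of 0.13 and 0.11. The share of called genes that were higher fell with it from 61.5% to 48.9% in EDL, and from 53.8% to 37.7% in soleus. In ERRbeta/ERRgamma soleus that share went from 47.1% to 33.4%. The collagen calls in EDL of the ERRalpha/ERRgamma class were then 1 higher (Col7a1) and 1 lower (Col24a1).

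The most abundant gene of each further class is given in full, chosen by level and not by change. Col4a1, with Col4a2 the base of the muscle basement membrane, was at 2.94, 2.84 and 3.16 in wild types and 2.32, 2.49 and 2.84 in mKO EDL of the ERRalpha class. It was at 2.58, 3.38 and 2.82 against 2.67, 2.58 and 2.22 in ERRbeta/ERRgamma EDL and at 3.35, 3.63 and 3.78 against 2.67, 3.01 and 3.46 in ERRalpha/ERRgamma EDL. In all 3 the knockout-labelled mean was the lower one (-0.43, -0.44 and -0.54, SE 0.30 each), and the lowest adjusted p was 0.243. In soleus the values were 3.35, 2.99 and 3.35 against 2.88, 3.02 and 2.98 (ERRalpha), 2.43, 3.40 and 2.76 against 3.76, 2.24 and 3.78 (ERRbeta/ERRgamma) and 4.36, 3.75 and 3.78 against 4.06, 3.32 and 3.96 (ERRalpha/ERRgamma). The ERRalpha/ERRgamma wild types were the highest of the soleus wild types, and the summed endothelial markers were also highest there (7.01 to 7.04, against 5.93 to 6.50 in the other soleus wild types). The part of vessel RNA in this order was not tested.

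Col3a1, the highest of the fibrillar genes, was at 2.78, 3.62 and 4.06 against 2.72, 3.23 and 3.35 in ERRalpha EDL, at 2.98, 5.01 and 3.28 against 3.72, 3.98 and 2.95 in ERRbeta/ERRgamma EDL and at 3.90, 4.18 and 4.27 against 3.96, 3.85 and 4.46 in ERRalpha/ERRgamma EDL. Every one of these pairs overlapped. The soleus values were 4.14, 3.91 and 5.02 against 3.56, 4.77 and 3.48 in the ERRalpha class and 5.49, 4.52 and 4.69 against 5.06, 4.97 and 5.33 in the ERRalpha/ERRgamma class, again overlapping.

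In the next 5 genes, wild-type libraries stand first and knockout-labelled libraries second. Col6a1 encodes a chain of the type VI filaments, whose loss causes muscular dystrophy. Of its EDL signals, the ERRalpha class had 2.33, 2.92 and 3.04 against 1.97, 2.31 and 2.73, the ERRbeta/ERRgamma class 2.28, 3.46 and 2.41 against 2.75, 2.98 and 2.28, and the ERRalpha/ERRgamma class 2.85, 3.18 and 3.21 against 3.30, 3.06 and 3.24. In soleus the same classes had 2.87, 2.94 and 3.77 against 2.73, 3.23 and 2.46, then 2.30, 3.73 and 2.50 against 3.24, 2.69 and 4.31, and then 4.17, 3.07 and 3.54 against 3.70, 3.60 and 4.03. All 6 pairs overlapped, with differences from -0.43 to 0.57 (SE 0.37 each).

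Col15a1 encodes the multiplexin of the muscle basement membrane zone. For Col15a1 in EDL the ERRalpha class had 1.22, 1.66 and 1.88 against 1.29, 1.54 and 1.64, the ERRbeta/ERRgamma class 1.29, 2.54 and 1.31 against 1.64, 1.61 and 1.27, and the ERRalpha/ERRgamma class 1.85, 1.91 and 2.67 against 2.25, 1.77 and 2.40. In soleus the same classes had 2.18, 1.81 and 2.64 against 2.11, 2.04 and 2.04, then 1.46, 2.52 and 1.49 against 2.15, 1.66 and 2.73, and then 3.50, 2.08 and 2.77 against 2.68, 2.41 and 3.25. Its differences lay between -0.21 and 0.36 (SE 0.35 each), and every pair overlapped.

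Col22a1 had the highest mean of the FACITs in EDL. For this gene in EDL the ERRalpha class had 1.56, 1.64 and 1.37 against 1.36, 0.98 and 1.53, the ERRbeta/ERRgamma class 1.70, 1.71 and 1.70 against 1.39, 1.67 and 1.63, and the ERRalpha/ERRgamma class 1.49, 1.12 and 1.31 against 1.06, 1.34 and 1.29. Its soleus signals in the same classes were -0.23, 0.50 and -0.01 against 0.54, 0.71 and -0.44, then 0.69, -0.07 and 0.32 against -0.27, 0.99 and 1.35, and then 0.08, -0.25 and 0.03 against 0.35, 0.31 and 0.14. The knockout-labelled libraries were lower without overlap in ERRbeta/ERRgamma EDL (-0.14 ± 0.29) and higher without overlap in ERRalpha/ERRgamma soleus (0.31 ± 0.29), and neither passed the test.

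Col23a1 was the transmembrane collagen with the higher level. Among EDL libraries the ERRalpha class had -1.32, -0.73 and -0.79 against -1.04, -0.53 and -0.51, the ERRbeta/ERRgamma class -1.05, -0.42 and -0.74 against -0.91, -0.57 and -0.47, and the ERRalpha/ERRgamma class -0.94, -0.77 and -0.90 against -0.30, -0.67 and -0.77. Among soleus libraries the same classes had -0.40, -1.34 and -0.76 against -0.86, -0.55 and -0.28, then -0.13, 0.16 and -0.34 against 0.14, -0.09 and 0.03, and then -0.26, -0.45 and 0.14 against -0.18, -0.40 and -0.62. The 6 differences were between -0.21 and 0.29 (SE 0.24 each), and the groups were apart in ERRalpha/ERRgamma EDL alone.

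Col26a1 was the higher of the remaining 2 genes. Its EDL signals were low, and the ERRalpha class had -5.35, -4.37 and -5.39 against -5.36 and -4.30 (1 not detected), the ERRbeta/ERRgamma class -3.37 and -3.30 (1 not detected) against -3.66, -2.28 and -2.94, and the ERRalpha/ERRgamma class -3.11, -3.80 and -3.47 against -3.11, -3.82 and -4.53. For Col26a1 in soleus the same classes had -2.07, -3.13 and -1.70 against -3.41, -1.27 and -1.67, then -0.94, -0.83 and -0.93 against -1.91, -0.79 and -1.06, and then -1.45, -1.12 and -1.14 against -1.51, -1.94 and -1.90. The 6 knockout differences, between -0.55 and 0.37, did not pass the test. In EDL these differences are from the libraries that detected the gene. With missing signals at the table's lowest value they were -0.92 in the ERRalpha class and 2.00 in the ERRbeta/ERRgamma class, in place of 0.21 and 0.37.

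Genes that make, cross-link, cut and sense collagen were followed as 6 lists, described by their counts. In EDL of the ERRalpha and ERRbeta/ERRgamma classes and in soleus of the ERRalpha class, 0 genes of the 6 lists were called in limma, and 0 to 3 genes a list had an unadjusted p under 0.05. Of all genes, 3.28%, 0.218% and 0.71% were called in these groups. The calls outside these groups were few and lay in ERRbeta/ERRgamma soleus and ERRalpha/ERRgamma EDL, with P4ha2 alone in ERRalpha/ERRgamma soleus.

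Of the genes for collagen biosynthesis (23 listed, 22 tested), 1 was called in each of 3 comparisons, where 18.1% (ERRalpha/ERRgamma EDL), 12.7% (ERRalpha/ERRgamma soleus) and 6.71% (ERRbeta/ERRgamma soleus) of all genes were called. P4hb, the shared subunit of prolyl 4-hydroxylase, rose in ERRalpha/ERRgamma EDL (0.48 ± 0.10, adjusted p = 0.000873). P4ha2, a catalytic subunit of it, fell in ERRalpha/ERRgamma soleus (-0.44 ± 0.14, adjusted p = 0.0427). P3h1, a prolyl 3-hydroxylase, rose in ERRbeta/ERRgamma soleus (0.65 ± 0.20, adjusted p = 0.049), with overlapping libraries. There 18 of 22 genes were above 0 with a median of 0.34, and Serpinh1, the collagen chaperone HSP47, was at 0.97 ± 0.31 (adjusted p = 0.0531).

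Of the 14 genes for processing and cross-linking, 4 rose in ERRbeta/ERRgamma soleus, and all 14 had differences above 0 (median 0.86), where 6.71% of all genes were called and their median was 0.05. They were the lysyl oxidase Lox (1.81 ± 0.52, adjusted p = 0.0302), its relatives Loxl1 (1.18 ± 0.35, adjusted p = 0.0383) and Loxl3 (1.58 ± 0.36, adjusted p = 0.00631), and the transglutaminase Tgm2 (0.62 ± 0.11, adjusted p = 0.000624). The groups overlapped for Lox and Loxl1. With only the groups compared in the fit, limma called 4 of all genes in this comparison, in place of 898. The same soleus libraries are those in which leukocyte and tendon markers also moved. Tgm2 rose in ERRalpha/ERRgamma EDL as well (0.37 ± 0.11, adjusted p = 0.016), where 18.1% of all genes were called.

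Of 12 tested genes for collagen breakdown and its inhibitors, Timp4, an inhibitor of matrix proteases, fell in ERRalpha/ERRgamma EDL (-0.87 ± 0.30, adjusted p = 0.0445). There 18.1% of all genes were called. Of 7 receptors, Itgb1, the integrin beta subunit of the collagen receptors, rose in ERRbeta/ERRgamma soleus (0.50 ± 0.15, adjusted p = 0.0441), where 6.71% of all genes were called. Its libraries overlapped between the groups. None of 11 partners of collagen in the basement membrane was called in any of the 6 comparisons in limma, where 0.218% to 18.1% of all genes were, and 0 to 3 of them had an unadjusted p under 0.05. Among TGF-beta pathway genes, Ltbp3 (0.64 ± 0.18, adjusted p = 0.00895) and the ligand Tgfb2 (0.56 ± 0.19, adjusted p = 0.0417) rose in ERRalpha/ERRgamma EDL, against the same 18.1% of all genes. Ctgf, a matrix-associated growth factor gene, rose in ERRbeta/ERRgamma soleus (1.55 ± 0.39, adjusted p = 0.0129), against 6.71%.

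Of the marker lists not yet given, Kdr, an endothelial receptor, fell in ERRalpha/ERRgamma EDL (-0.60 ± 0.17, adjusted p = 0.0114), where the neural adhesion gene Ncam1 rose (0.88 ± 0.28, adjusted p = 0.0242). In ERRalpha/ERRgamma soleus the endothelial Tie1 (-0.43 ± 0.11, adjusted p = 0.00807), the pericyte marker Kcnj8 (-0.67 ± 0.22, adjusted p = 0.0402) and the myelin gene Mbp (-1.77 ± 0.54, adjusted p = 0.0277) fell. Of all genes, 18.1% were called in that EDL comparison and 12.7% in that soleus comparison. Leukocyte, fibroblast, fat cell and cartilage lists had 0 genes called in the 6 comparisons in limma, where 0.218% to 18.1% of all genes were. In these lists 0 to 2 genes a list had an unadjusted p under 0.05. The part of these cells in the collagen results was not tested.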

How the data were processed

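RNA sequencing of soleus and EDL was analysed from the authors' deposited table of log2 quantile-normalized signals, 1 column per library. The submitters' processing notes name Partek 6.6, GRCm38.p6 and mm10. How reads were aligned, whether counting used strand, and what was logged with which offset is not given in the sources used here. Steps between low values fit base 2. The table held no counts, so depth per library is unknown and no counting interval can be given. Of 45802 rows, 27904 had no value, and 27 with a date for a symbol were left out.

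Genes were kept where the mean, with missing signals set at the table's lowest value (-8.21), exceeded the 25th percentile of all genes (-5.24): 13404 of 17873. limma 3.58.1 (R 4.3.3) with an intensity trend was fitted to 12 group means over all 36 libraries, missing values left missing. P-values were adjusted by Benjamini-Hochberg over all genes within each comparison, and adjusted p under 0.05 was called. Errors are limma SEs unless named. The labels do not say more of how animals were chosen, so p-values measure the spread between these animals. A class letter is missing from the EDL columns of the ERRalpha class, which were placed by the animal number shared with soleus columns.

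The collagen genes and the pathway and marker lists were chosen with earlier results of these data known. Named with every library are collagens called in a knockout comparison or in a difference between muscles, plus the gene of highest level in each class. Up to 3 called genes per pathway list and comparison, and up to 4 per class between the muscles, were also to be named. The text goes beyond this for the processing and cross-linking list and for the FACITs. Scx, Sox9, Cd68 and Serpinh1 were named after their values were seen. Alternatives were no filter, missing signals at the lowest value, recentring on library medians, only the groups compared, no intensity trend, the animal as a block, and each library left out. Replicate numbers are not in the column names, but 14 of 22 animals gave both muscles, which pairs libraries between the muscles only (correlation within animals 0.137). On simulated data at the sizes of the ERRbeta/ERRgamma soleus comparison (13404 genes), 36% of 100 genes changed by 0.5 and 72% of 100 changed by 1 were recovered. The changed genes were drawn from all kept genes with a signal in every library. Collagens varied more within groups (median SD 0.58 against 0.23), so these shares do not apply to them. Promoter sequences are RefSeq's. Protein sequences were not used here, and 1 called gene of the pathway lists is not reported here.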

Additional observations from a re-analysis of the deposited data

Results flagged for a closer look

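Col24a1 was singled out because its change differed between groups in 3 tests of the difference itself. All 3 share the libraries of ERRalpha/ERRgamma EDL and are not independent. In the ERRalpha/ERRgamma class the change in soleus minus that in EDL was 1.99 ± 0.50 (limma, adjusted p = 0.0252), with 3 of 3 dmKO libraries below all wild types in EDL and overlapping libraries in soleus. Leaving out single libraries gave 1.54 to 2.34, and the call was lost in 6 of 12 such fits. Within EDL, the ERRalpha/ERRgamma change minus the ERRalpha change was -2.12, and minus the ERRbeta/ERRgamma change it was -1.93.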

How the results depend on the processing

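No called value changed sign under the alternatives run. Differences that did not pass the test did so in places: Col26a1 in ERRalpha EDL went from 0.21 to -0.92 with missing signals at the lowest value, Col3a1 in ERRbeta/ERRgamma EDL from -0.21 to 0.42 without wild-type library 2, and Col24a1 in ERRalpha/ERRgamma soleus from 0.28 to -0.17 without wild-type library 2. The collagen median in ERRbeta/ERRgamma EDL went from 0.05 to -0.01 with missing signals at the lowest value. With only the groups compared in the fit, the counts of called collagen genes went from 1 to 0 in ERRalpha EDL, in ERRbeta/ERRgamma soleus and for the muscle difference of the ERRalpha/ERRgamma class. Under that setting they went from 1 to 2 in ERRalpha/ERRgamma soleus, where Col8a1 joined Col7a1, and from 3 to 1 among the soleus wild-type groups. That setting has fewer samples for the spread, and the calls over all genes in ERRbeta/ERRgamma soleus went from 898 to 4, in ERRalpha EDL from 436 to 201, in ERRalpha soleus from 95 to 2 and in ERRbeta/ERRgamma EDL from 29 to 4. ERRalpha EDL also had 0 called collagens after recentring and with no intensity trend; the cause was not tested.

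With single libraries left out, the counts were 0 to 1 in ERRalpha EDL, 2 to 3 in ERRalpha/ERRgamma EDL, 0 to 13 in ERRbeta/ERRgamma soleus and 14 to 18 between wild-type muscles. They were 0 to 6 for the muscle difference in the ERRbeta/ERRgamma class (6 without dmKO soleus library 2), 0 to 1 for that in the ERRalpha/ERRgamma class and 0 to 4 among soleus wild types. With the animal as a replicate block, no collagen count moved by more than 1: Col15a1 became called between the wild-type muscles (0.45, adjusted p = 0.0416), giving 17 in place of 16. Over all genes, the block took the muscle differences called from 28 to 107 in the ERRbeta/ERRgamma class and from 2 to 9 in the ERRalpha class. Of values for single genes, 1253 of 1320 kept their side of the threshold when a library was left out, and 788 of 803 under the other settings. Depth is unknown, and Col9a1, Col19a1, Col26a1 and Col28a1 had low or missing signals in 1 or both muscles.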
